A study of Mus musculus with 2 samples.

Results

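The genes described here are 50 genes that copy DNA in S phase or make its deoxynucleotide building blocks. They were chosen by name, as every row of the deposited expression table whose gene symbol is on a fixed list of replication and nucleotide synthesis genes, and all 50 of them were found among the 34745 genes of the table. The samples are monocytic myeloid-derived suppressor cells (M-MDSCs) of the mouse, immature myeloid cells that hold back T cells. Bone marrow cells of C57BL/6 mice aged 6 to 8 weeks were kept in culture for 7 days. GM-CSF at 50 ng/ml, which makes myeloid precursors grow, was in the medium of both groups, without further addition for CHBP- M-MDSC and with cyclic helix B peptide (CHBP) for CHBP+ M-MDSC. CHBP is a peptide derived from erythropoietin that does not drive red cell production. The M-MDSCs were then sorted by flow cytometry as CD11b+Ly6G-Ly6Chigh cells, and RNA of each condition was sequenced as 1 library. In the labels the strain of CHBP- M-MDSC is C57BL/6 and that of CHBP+ M-MDSC is C57BL/7, and the study's methods give the CHBP dose in another unit than its dose series, so no dose is printed here. With 2 libraries and no replicates, what CHBP did cannot be told apart from anything else in which the libraries differed, and no p-value between the conditions is given.

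DNA replication starts at origins. The origin recognition complex (Orc1 to Orc6), Cdc6 and Cdt1 load the MCM helicase onto DNA in G1, and geminin (Gmnn) blocks a repeat of this loading later in the cycle. Cdc45 and the GINS complex then switch the helicase on, and DNA polymerases alpha, delta and epsilon copy the strands with the sliding clamp PCNA. Many of these genes are classical targets of E2F transcription factors, which turn them on as cells leave G1, so their mRNA is high in dividing cells and low in resting or fully differentiated myeloid cells. Bone marrow progenitors divide strongly in GM-CSF before they mature.

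A feature that part of these genes share, and that their choice did not use, is the E2F-type sequence in their promoters. RefSeq promoters (GRCm38.p6), each a window of 300 bases with 250 bases before the start site and 50 after it, were found for 41 of the 50 genes. The windows were searched on both strands for the octamers TTTCGCGC, TTTGGCGC and TTTCCCGC, whose matches on opposite strands can overlap. At least 1 of them was found for 16 of the 41 genes (39.0%), against 573 of 27025 genes (2.12%) with a promoter in the table. These 27025 genes were not limited to those expressed here, nor matched for the GC content of their promoters. TTTCGCGC was found for 7 of the 41 genes and for 0.374% of all genes, TTTGGCGC for 6 and 0.585%, and TTTCCCGC for 8 and 1.24%. The 4 windows shown are those of Mcm6, which held the most matches, of its helicase partner Mcm5, of the licensing factor Cdt1, the lowest in CHBP+ M-MDSC among genes with a match, and of Pola1, the highest. Capitals mark the octamers, and each sequence runs 5′ to 3′ on the strand of its gene.
Mcm6 (chr1:128359656-128359955, minus strand): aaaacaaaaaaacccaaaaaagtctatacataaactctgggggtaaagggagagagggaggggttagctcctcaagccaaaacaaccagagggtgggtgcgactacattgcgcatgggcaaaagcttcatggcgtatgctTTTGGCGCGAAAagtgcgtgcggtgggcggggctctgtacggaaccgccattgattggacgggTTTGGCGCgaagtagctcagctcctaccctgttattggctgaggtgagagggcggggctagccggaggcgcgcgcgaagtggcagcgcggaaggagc
Mcm5 (chr8:75109259-75109558, plus strand): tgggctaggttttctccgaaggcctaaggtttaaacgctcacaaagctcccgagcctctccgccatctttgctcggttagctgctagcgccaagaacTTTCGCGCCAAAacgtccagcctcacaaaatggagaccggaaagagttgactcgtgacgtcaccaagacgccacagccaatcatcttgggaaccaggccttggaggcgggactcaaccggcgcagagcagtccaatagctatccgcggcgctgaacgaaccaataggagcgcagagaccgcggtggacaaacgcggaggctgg
Cdt1 (chr8:122567765-122568064, plus strand): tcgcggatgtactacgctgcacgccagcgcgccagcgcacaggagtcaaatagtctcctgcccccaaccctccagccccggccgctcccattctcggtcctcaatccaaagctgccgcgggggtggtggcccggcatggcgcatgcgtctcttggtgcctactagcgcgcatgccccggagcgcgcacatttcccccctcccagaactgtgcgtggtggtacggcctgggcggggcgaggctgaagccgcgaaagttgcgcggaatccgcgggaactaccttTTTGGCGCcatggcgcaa
Pola1 (chrX:93632106-93632405, minus strand): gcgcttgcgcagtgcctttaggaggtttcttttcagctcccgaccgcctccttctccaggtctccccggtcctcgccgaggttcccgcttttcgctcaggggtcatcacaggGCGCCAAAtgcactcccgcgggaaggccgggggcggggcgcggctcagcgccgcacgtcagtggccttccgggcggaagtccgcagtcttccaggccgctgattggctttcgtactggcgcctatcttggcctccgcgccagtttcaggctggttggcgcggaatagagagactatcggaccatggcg
In Mcm6 and Mcm5 a pair of octamers overlapped on opposite strands, starting 110 and 106 bases before the start site of Mcm6 and 153 and 149 bases before that of Mcm5. Mcm6 had a further match 47 bases before the start site. The match of Pola1 began 138 bases before its start site, and that of Cdt1 began 32 bases after it. A match is a description of these letters and does not show that a factor binds there. The 16 genes with a match had a median log2 ratio (FPKM of CHBP+ over CHBP- M-MDSC, each plus 1) of -0.11, with 12 of 16 below 0, and the 25 genes whose window held none had a median of -0.18, with 19 of 25 below 0. The promoters of Mcm6 and Pola1, whose log2 ratios had opposite signs, both held the octamer TTTGGCGC.

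The counts of all genes summed to 16484504 reads in CHBP- and 16280466 in CHBP+ M-MDSC. The 50 replication genes together had 43284 reads in CHBP- M-MDSC, 0.263% of the library (95% Clopper-Pearson interval 0.260% to 0.265%), and 38380 reads in CHBP+ M-MDSC, 0.236% (0.233% to 0.238%). Intervals here and throughout cover counting error only, since reads are not independent molecules and no replicates exist. Every one of the 50 genes was measured in both libraries, with 121 to 3384 reads per gene in CHBP- and 93 to 3158 in CHBP+ M-MDSC. Their levels in FPKM, the deposited reads scaled to a gene length and to the library total, ran from 0.847 to 51.4 (median 9.11) in CHBP- and from 1.23 to 48.5 (median 7.71) in CHBP+ M-MDSC. In bulk RNA, fewer dividing cells and less of these mRNAs per cell cannot be told apart.

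**Figure D1:**
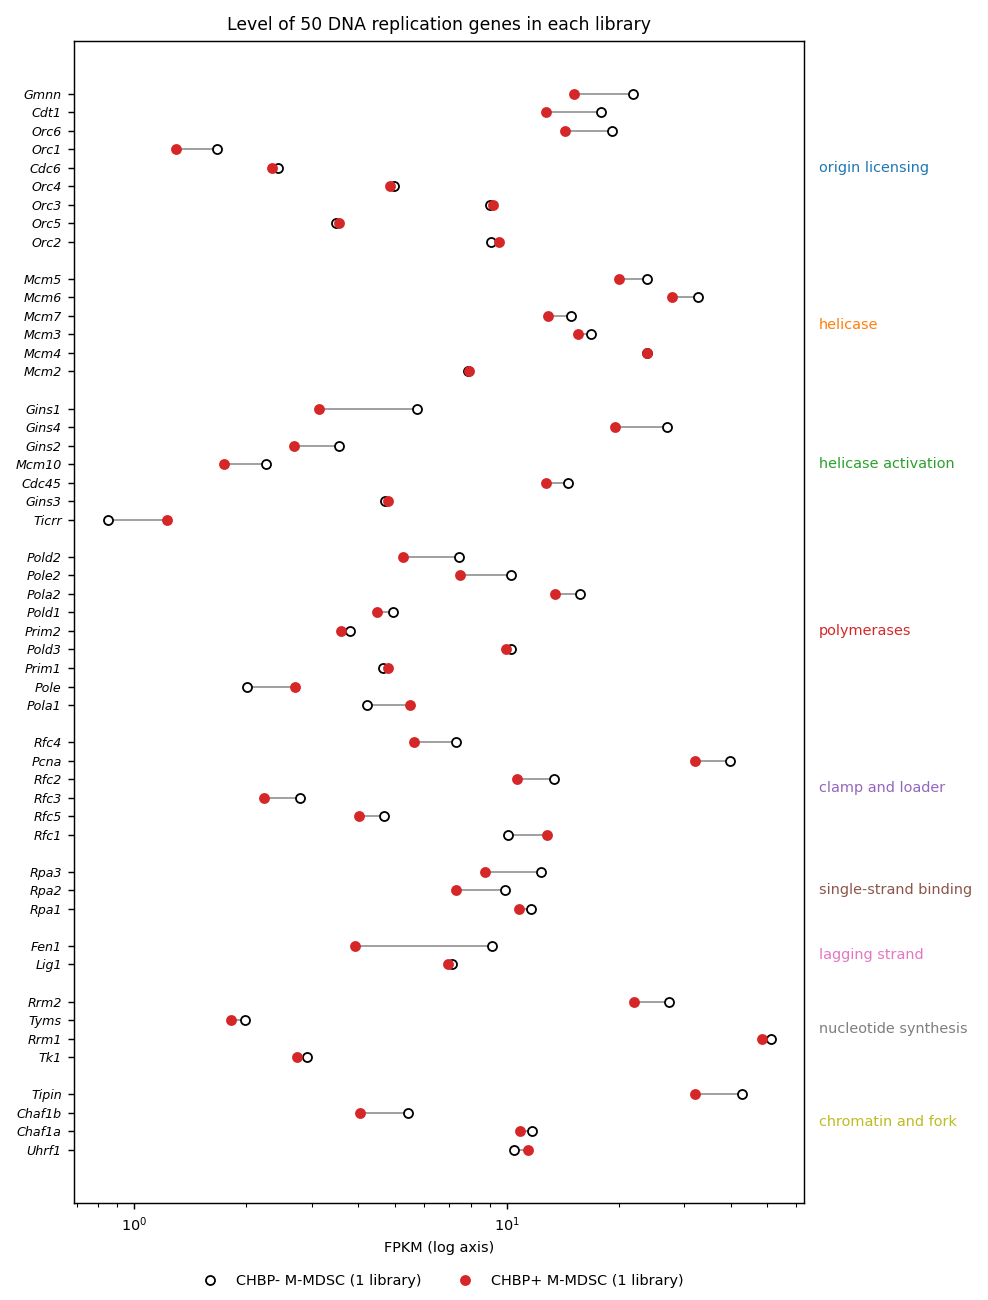
FPKM (log axis) of each of the 50 genes, grouped by role, in CHBP- M-MDSC (open) and CHBP+ M-MDSC (filled), with 1 library each and no error bars. Most filled points lie left of the open ones, with the widest gap for Fen1 (9.16 and 3.91 FPKM), while Pola1, Pole, Rfc1 and Ticrr lie the other way.

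The difference between the libraries was small for most of these genes and mostly in 1 direction. The log2 ratio was taken of the FPKM in CHBP+ over that in CHBP- M-MDSC after 1 was added to each, which understates the difference of genes with low FPKM. It had a median of -0.18 over the 50 genes, against -0.03 over the 10948 genes with at least 1 FPKM in a library. It was below 0 for 38 of the 50 genes (76%), against a background of 53.7%, and above 0 for 12, against 46.3%. At least 1.5-fold lower in CHBP+ M-MDSC were 2 of the 50, Fen1 and Gins1, against 2.89% of all genes kept, and 0 of the 50 were at least 1.5-fold higher, against 3.42%. At 2-fold, Fen1 alone was lower (0.42% of all genes kept) and none of the 50 was higher (0.776%). The share past 1.5-fold was thus near the background. The 95% counting interval of the log2 ratio lay wholly below 0 for 27 of the 50 genes (54%), where 30.9% of all genes kept did so, and wholly above 0 for 4 (8%), where 27.9% did so. The other 19 genes had an interval that held 0, so that a difference was not detectable for them at this depth. The span of 15 of the 50 genes overlaps another listed gene with at least 10 reads, which makes their counts less certain, and without them the median of the other 35 was -0.21.

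**Figure D2:**
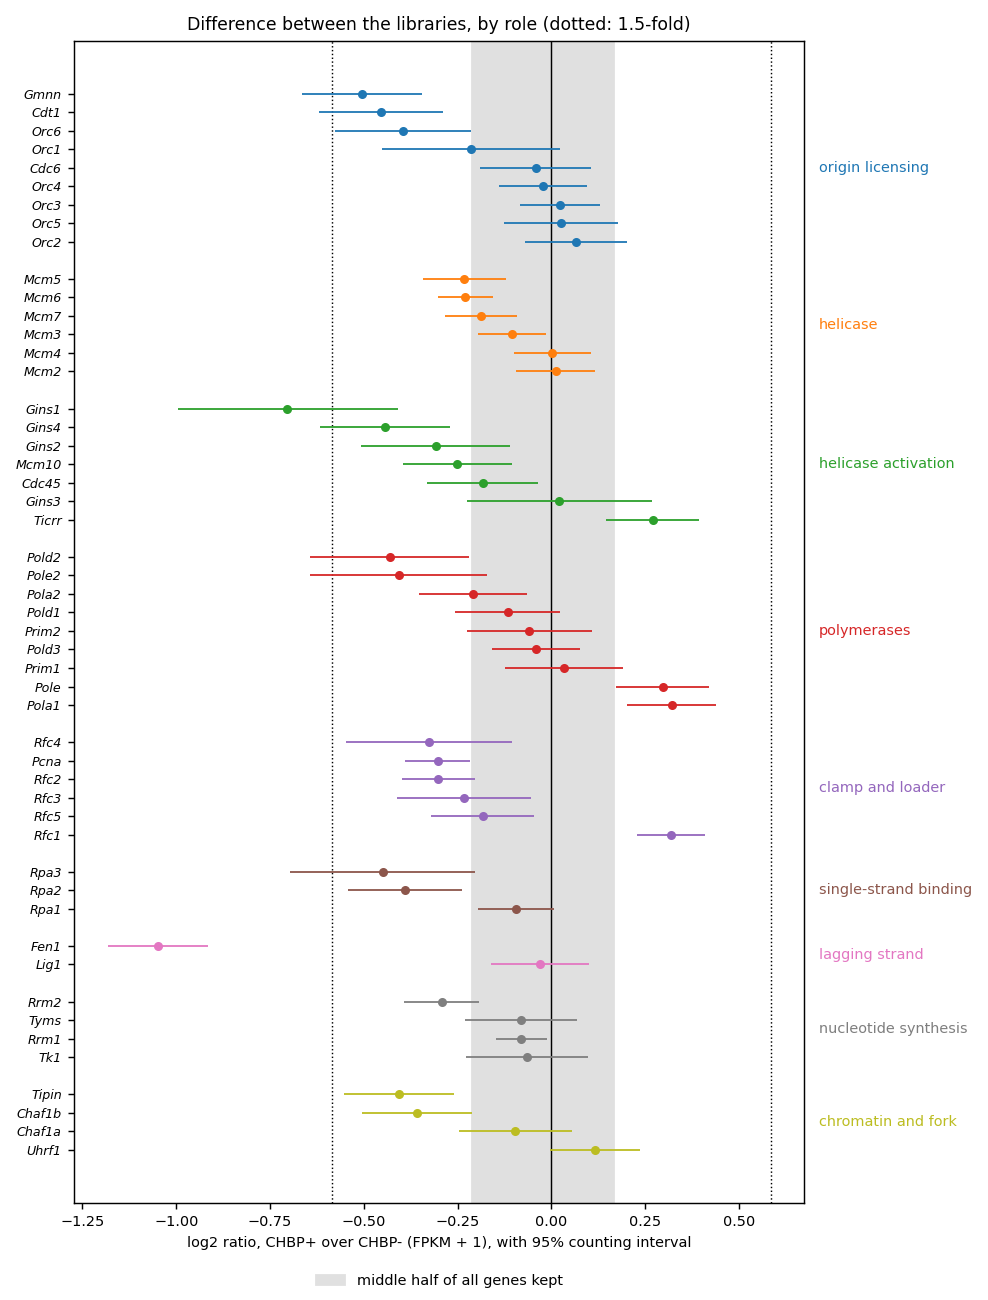
Log2 ratio of each gene (CHBP+ over CHBP- M-MDSC, FPKM + 1) with its 95% Clopper-Pearson counting interval, grouped by role and ordered within each role. The grey band holds the middle 50% of all genes kept and the dotted lines mark 1.5-fold. Only Fen1 (-1.05) and Gins1 (-0.70) lie beyond them.

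Among the 9 genes of origin licensing, the loading factor Cdt1, its inhibitor geminin and the smallest ORC subunit were lower in CHBP+ M-MDSC, and Orc2 to Orc5 lay near 0. Gmnn, the inhibitor of Cdt1, had 712 reads (21.9 FPKM) in CHBP- and 486 reads (15.1 FPKM) in CHBP+ M-MDSC, with a log2 ratio of -0.51 (interval -0.67 to -0.35). Cdt1, which brings the helicase to ORC, had 646 and 456 reads, or 17.9 and 12.8 FPKM, a log2 ratio of -0.45 (-0.62 to -0.29). Both partners of this antagonistic pair were lower, with intervals that overlap. Orc6 had 19.2 and 14.3 FPKM and a log2 ratio of -0.40 (-0.58 to -0.22). Orc2, Orc3, Orc4 and Orc5 had log2 ratios from -0.02 to 0.07, and the intervals of all 4 held 0. Orc1, the ATPase subunit whose level rises and falls with the cycle, had only 121 and 93 reads, a log2 ratio of -0.22 (-0.45 to 0.02). Cdc6, the other loading ATPase, had 386 and 366 reads and a log2 ratio of -0.04 (-0.19 to 0.11).

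The replicative helicase is a ring of Mcm2 to Mcm7. Its 6 genes summed to 10582 reads in CHBP- and 9435 in CHBP+ M-MDSC, a ratio of 0.903 after scaling to the library totals. Mcm5 (23.8 and 20.1 FPKM) and Mcm6 (32.8 and 27.8 FPKM) had the same log2 ratio of -0.23, Mcm7 (14.9 and 12.9 FPKM) had -0.19 and Mcm3 (16.9 and 15.6 FPKM) had -0.11. The intervals of these 4 lay below 0. Mcm4 (1412 and 1397 reads) and Mcm2 (1159 and 1155 reads) differed between the libraries by less than counting error, with log2 ratios of 0.00 and 0.01. Scaled to the longest transcript of the GENCODE M1 annotation rather than to the length behind the deposited FPKM, and to the library total in the same way, the 6 subunits lay between 20.9 and 43.8 RPKM in CHBP- M-MDSC and between 20.1 and 37.1 RPKM in CHBP+ M-MDSC, with Mcm6 the highest in both.

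Of the 7 genes that activate the helicase, 5 had an interval below 0. Gins1, a GINS subunit on chromosome 2 from 150905400 to 150931280, had 176 reads (5.74 FPKM) in CHBP- and 95 reads (3.14 FPKM) in CHBP+ M-MDSC. The log2 ratio of Gins1 was -0.70 (-0.997 to -0.41), and it overlaps no other listed gene with at least 10 reads. Gins4 (27.0 and 19.5 FPKM) had a log2 ratio of -0.44 (-0.62 to -0.27) and Gins2 (3.55 and 2.68 FPKM) one of -0.31 (-0.51 to -0.11). Gins3, the fourth subunit of the same complex, had 187 and 188 reads and a log2 ratio of 0.02 (-0.23 to 0.27), so its interval did not overlap that of Gins1 or of Gins4. Gins2 shares 2758 bases with Gse1, whose reads were higher in CHBP+ M-MDSC (704 and 1456), and its own count is uncertain for that reason. Cdc45, the partner of GINS in the active helicase, had 14.6 and 12.8 FPKM and a log2 ratio of -0.18 (-0.33 to -0.04). Mcm10, needed for origin firing, had 2.26 and 1.74 FPKM and a log2 ratio of -0.25 (-0.40 to -0.11). Ticrr (treslin), which helps load Cdc45, went the other way, with 228 and 326 reads and a log2 ratio of 0.27 (0.15 to 0.39).

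In polymerases alpha and epsilon the large catalytic subunit was higher and the accessory subunit lower in CHBP+ M-MDSC. Pola1, the catalytic subunit of polymerase alpha, which lays down the primers with primase, had 694 reads (4.21 FPKM) in CHBP- and 896 reads (5.50 FPKM) in CHBP+ M-MDSC. Its log2 ratio of 0.32 (0.20 to 0.44) was the highest of the 50 genes with 1 FPKM added. With 0.1 FPKM added instead, Ticrr (0.49) and Pole (0.41) lay above Pola1 (0.38). Pole, the catalytic subunit of the leading-strand polymerase epsilon, had 454 and 602 reads, or 2.01 and 2.70 FPKM, a log2 ratio of 0.30 (0.17 to 0.42). Their accessory partners were lower, with -0.21 (-0.35 to -0.06) for Pola2 and -0.41 (-0.64 to -0.17) for Pole2. In both enzymes the intervals of catalytic and accessory subunit did not overlap. In polymerase delta, which copies the lagging strand, the catalytic subunit Pold1 had a log2 ratio of -0.12 (-0.26 to 0.02), and Pold2 one of -0.43 (-0.64 to -0.22). Pold3 (-0.04) and the primase genes Prim1 (0.03) and Prim2 (-0.06) had intervals that held 0.

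The same split was seen in the clamp loader, replication factor C, which opens the PCNA ring and closes it around DNA. Rfc1, its large subunit, had 1507 reads (10.1 FPKM) in CHBP- and 1891 reads (12.8 FPKM) in CHBP+ M-MDSC, and a log2 ratio of 0.32 (0.23 to 0.41). The 4 small subunits were lower, with log2 ratios of -0.30 for Rfc2, -0.23 for Rfc3, -0.33 for Rfc4 and -0.18 for Rfc5, all with intervals below 0. Rfc2 shares 1784 bases with Lat2 (1808 and 1495 reads), so its count is uncertain. The same holds for Rfc4, which overlaps Eif4a2 (3612 and 3605 reads), and for Rfc5, which overlaps Wsb2 (1490 and 1364 reads). Pcna itself had 2312 and 1839 reads, or 40.0 and 32.2 FPKM, a log2 ratio of -0.30 (-0.39 to -0.22). The table also lists a pseudogene copy of it, Pcna-ps2, with 1166 and 1018 reads. How reads shared by near-identical copies were assigned is not stated, so the count of Pcna is uncertain. Together the pair had 3478 reads in CHBP- and 2857 in CHBP+ M-MDSC, a ratio of 0.832 after scaling to the totals. Per kilobase of the longest GENCODE M1 transcript, Pcna was the most abundant of the 50 genes in both libraries, with 92.4 and 74.4 RPKM.

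Replication protein A coats single-stranded DNA at the fork. Its subunits Rpa2 (9.90 and 7.31 FPKM) and Rpa3 (12.3 and 8.77 FPKM) had log2 ratios of -0.39 (-0.54 to -0.24) and -0.45 (-0.70 to -0.20), whereas its large subunit Rpa1 (11.6 and 10.8 FPKM) had one of -0.09 (-0.20 to 0.01). As in the clamp loader, the largest subunit had the highest log2 ratio of its complex.

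Fen1, the nuclease that trims the flaps of Okazaki fragments, showed the largest difference of the 50 genes. It is listed on chromosome 19 from 10199132 to 10204169 and had 1058 reads (9.16 FPKM) in CHBP- against 446 reads (3.91 FPKM) in CHBP+ M-MDSC. The log2 ratio of Fen1 was -1.05 (-1.18 to -0.92). Its neighbour Tmem258 shares 156 bases with it and was lower too (574 and 361 reads), so that the pair summed to 1632 and 807 reads, a ratio of 0.501. A further listed gene, Gm10143, overlaps Fen1 with 1 and 4 reads, and whether reads of Fen1 were left uncounted there was not tested. Lig1, the ligase that seals the fragments after Fen1, had 755 and 728 reads and a log2 ratio of -0.03 (-0.16 to 0.10), and its interval did not overlap that of Fen1.

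All 4 genes of deoxynucleotide synthesis were below 0, by small amounts. Rrm1, the large subunit of ribonucleotide reductase, the enzyme that makes deoxynucleotides from ribonucleotides, had the highest FPKM of the 50 genes (51.4 and 48.5) and a log2 ratio of -0.08 (-0.15 to -0.01). Rrm2, the small subunit that is made in S phase, had 27.3 and 22.1 FPKM and a log2 ratio of -0.29 (-0.39 to -0.19), whose interval did not overlap that of Rrm1. Thymidylate synthase (Tyms, 341 and 309 reads) and thymidine kinase (Tk1, 353 and 328 reads) had log2 ratios of -0.08 and -0.06, with intervals that held 0. Tk1 overlaps Afmid and Gm20708, both with reads, and its count is uncertain for that reason.

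Chromatin is rebuilt behind the fork by chromatin assembly factor 1. Its subunit Chaf1b (5.45 and 4.03 FPKM) had a log2 ratio of -0.36 (-0.50 to -0.21), and Chaf1a (11.7 and 10.9 FPKM) one of -0.10 (-0.25 to 0.05). Uhrf1, which brings the maintenance DNA methyltransferase to new DNA, had 917 and 989 reads and a log2 ratio of 0.12 (-0.004 to 0.24). Tipin, part of the complex that protects the fork, had 857 and 634 reads, or 42.9 and 32.2 FPKM, and a log2 ratio of -0.41 (-0.55 to -0.26).

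The split between long and short subunits followed a trend of the whole table. Over 10211 genes kept with a protein-coding transcript in GENCODE M1, Spearman's rho of the log2 ratio with longest-transcript length was 0.687, and over the 50 replication genes it was 0.617. Genes are not independent replicates, and all points share the same 2 libraries. The 4 genes with an interval above 0 had long transcripts, of 4751 bases for Rfc1, 5346 for Pola1, 7163 for Pole and 7185 for Ticrr, while Pole2, Rfc2, Rfc3 and Rfc4 had at most 1695 bases. The 17 replication genes under 2000 bases had a median log2 ratio of -0.39, with 16 of 17 below 0, and all 2966 genes of that length had a median of -0.25, with 88.0% below 0. Between 2000 and 3000 bases the medians were -0.18 for 12 replication genes and -0.08 for all genes, and between 3000 and 4000 bases they were -0.04 for 11 replication genes and 0.03 for all genes.

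The median of the replication genes was below that of all genes in each length class, with the widest gap between 4000 and 6000 bases. Between 4000 and 6000 bases, 6 of 8 replication genes (Cdc6, Mcm6, Mcm10, Orc1, Orc4 and Rpa1) were below 0, whereas 20.2% of all 1929 genes of that length were, and the medians were -0.07 and 0.15. At 6000 bases and above, Pole and Ticrr had a median of 0.28, against 0.37 for 1052 genes.

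**Figure D3:**
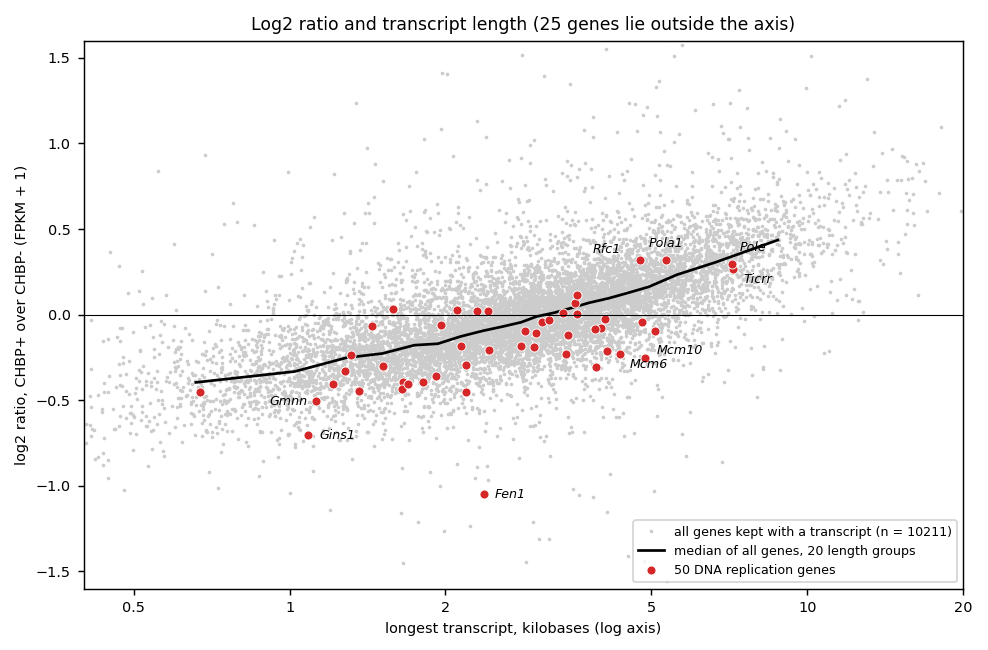
Log2 ratio (CHBP+ over CHBP- M-MDSC) against the length of the longest GENCODE M1 transcript in kilobases (log axis). Grey points are 10211 genes, the line is their median in 20 groups by length, and red points are the 50 replication genes. Most red points lie below the line, Pola1 and Rfc1 lie above it, and 25 genes fall outside the vertical axis.

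The trend with the length and GC content of transcripts was therefore removed by a polynomial fit over all these genes, a step that was added with the data in view. The median of the 50 replication genes went from -0.18 to -0.16, and the median of all genes was then -0.02. Below 0 were 40 of the 50 genes (80%), against 54.9% of all genes. With the counting interval moved by the same amount, 25 of the 50 lay wholly below 0 and 3 wholly above, against 23.6% and 17.7% of all genes. At least 1.5-fold lower was then Fen1 alone, at -0.95, as were 1.03% of all genes, and none of the 50 was as much higher, as were 1.81%. Gins1 came to -0.48, Gins4 to -0.23 and Gins3 to 0.06. The moved interval of Gins3 then overlapped those of Gins1 and Gins4, unlike the intervals as measured. Among the helicase genes and their activators, several with longer transcripts moved further down, to -0.39 for Mcm6, -0.27 for Mcm5, -0.44 for Mcm10 and -0.38 for Gins2. The gap between catalytic and accessory subunits narrowed, with 0.06 for Pola1 and -0.11 for Pola2, and -0.03 for Pole and -0.29 for Pole2. In both enzymes the moved intervals of catalytic and accessory subunit overlapped, and those of Pola1 and Pole held 0. In the clamp loader the gap narrowed too, with 0.12 for Rfc1 against -0.03 to -0.17 for its 4 small partners. Of those 4, 1 kept an interval wholly below 0. Within replication protein A the order turned over, with -0.30 for Rpa1, -0.24 for Rpa2 and -0.19 for Rpa3. The subunits of ribonucleotide reductase, apart as measured, came close together, with -0.22 for Rrm1 and -0.23 for Rrm2. The sign changed for 6 of the 50 genes. Pole, Ticrr (-0.06), Mcm4 (-0.10) and Orc2 (-0.04) went from above to below 0, and Tk1 (-0.06 to 0.18) and Prim2 (-0.06 to 0.04) from below to above it. Of these, Pole, Ticrr and Tk1 left their counting interval. Within the ORC, Orc1 was then lowest at -0.36, and Orc5 (0.08) and Orc3 (0.05) were above 0. Of the 9 licensing genes, 6 had a moved interval wholly below 0, Orc4 (-0.19) and Cdc6 (-0.22) among them, and 0 had one wholly above.

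**Figure D4:**
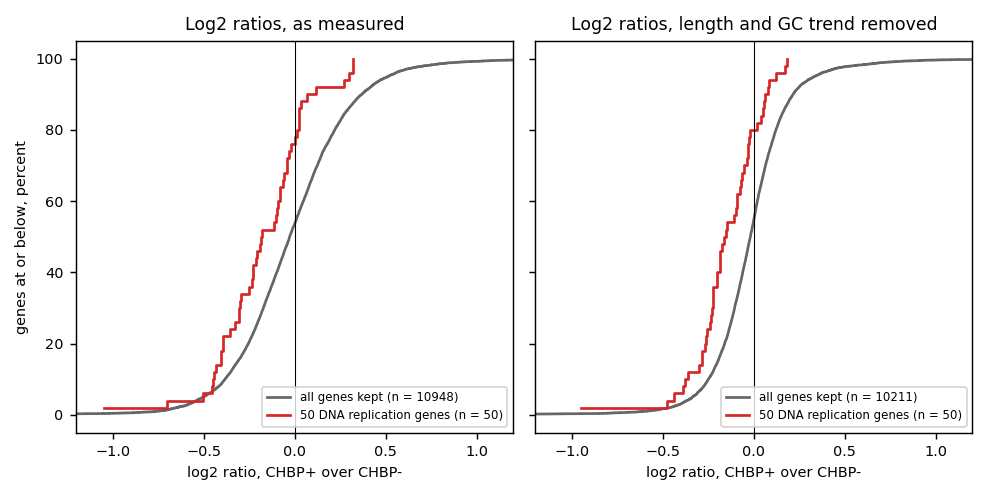
Share of genes (percent) at or below each log2 ratio, for all genes kept (grey) and the 50 replication genes (red), as measured (left) and with the length and GC trend removed (right). Below 0 are 76% of the red genes on the left and 80% on the right, against 53.7% and 54.9% of all genes. The horizontal axis is shown from -1.2 to 1.2.

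Other genes of S phase and of nucleotide supply were read from a separate list of 52 genes, of which 50 were kept. Their median log2 ratio was -0.07, with 28 of 50 below 0 (56%), near the 53.7% of all genes kept. The interval lay below 0 for 18 of them (36%) and above 0 for 13 (26%), against 30.9% and 27.9% of all genes. With 1 FPKM added, none passed 1.5-fold. Without that addition, Cdc7 (1.71 and 2.97 FPKM) and Mki67 (27.8 and 41.9 FPKM) were more than 1.5-fold higher in CHBP+ M-MDSC. The lowest were Dut, the dUTPase (-0.51), cyclin E1 (Ccne1, -0.45), the small polymerase delta subunit Pold4 (-0.45) and thymidylate kinase (Dtymk, -0.35). The highest were Mki67, the gene of the proliferation marker Ki-67 (0.58), Cdc7, the kinase that fires licensed origins (0.55), Atad2, a chromatin ATPase (0.42), and the retinoblastoma gene Rb1 (0.33), which overlaps Lpar6 and Rcbtb2. With the trend removed, Dut came to -0.39, Ccne1 to -0.32, Pold4 to -0.10 and Dtymk to -0.11. Atad2 then came to 0.13 and Rb1 to 0.11. Mki67 had 4612 reads in CHBP- and 6869 in CHBP+ M-MDSC on a transcript of 10075 bases, and with the trend removed its log2 ratio was 0.07. Cdc7 had 220 and 378 reads on 3129 bases, and its log2 ratio was 0.50 with the trend removed. Dnmt1, the maintenance DNA methyltransferase and partner of Uhrf1, had 31.1 and 39.1 FPKM and a log2 ratio of 0.32, or 0.15 with the trend removed. With the trend removed, 36 of these 50 genes (72%) were below 0, against 54.9% of all genes.

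The labelled cell type was checked against its markers. Itgam, which encodes CD11b, had 157 and 232 FPKM in the entry ENSMUSG00000030786, and 100 and 153 in another listed entry. Csf1r had 113 and 126, and Ly6c2 had 56.9 and 34.0. Ccr2 (3.29 and 3.84), which was not a sort marker, and Ly6c1 (3.70 and 2.91) were low. Ly6g, whose protein was gated out, had 2.19 and 2.12. Markers of other cells were also present, and none of the markers read was at 0 in either library. The 5 neutrophil granule genes read (Elane, Mpo, Prtn3, Ngp and Camp), made in granulocyte precursors, had a summed level of 196 FPKM in CHBP- and 139 in CHBP+ M-MDSC. All 5 had log2 ratios below 0, but Camp had only 22 and 17 reads and an interval that held 0 (-0.79 to 0.38), and with the length and GC trend removed Ngp (0.02) and Camp (0.13) lay above 0. The 4 erythroid genes read (Hbb-bs, Hba-a1, Epor and Gata1) were below 0 too, at 919 and 352 FPKM in sum, with an interval that held 0 for Epor (17 and 10 reads). The 4 B cell genes summed to 27.5 and 19.0 FPKM with 3 of 4 lower, the 4 mast cell and basophil genes to 200 and 174 FPKM with 3 of 4 lower, the 4 dendritic cell genes to 20.8 and 16.4 FPKM with 2 of 4 lower, and the 5 T cell genes to 3.26 and 2.95 FPKM with 4 of 5 lower. Single markers went the other way, with log2 ratios of 1.04 for the mast cell gene Ms4a2 (182 and 446 reads), 0.26 for the dendritic cell gene Zbtb46 and 0.18 for the B cell gene Pax5, and the lower dendritic sum came mostly from Ccr7 (17.6 and 13.1 FPKM). The summed level of each of these lists was lower in CHBP+ M-MDSC, as were most replication genes, and their part in the result was not tested.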

How the data were processed

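RNA of M-MDSCs was measured in 2 libraries, 1 per condition, grouped by the treatment label. Per the labels, the authors trimmed adapters and low-quality ends with Seqtk and removed short and ribosomal reads. The submitters' processing notes name HISAT2 2.0.4, Cufflinks 2.1.1, Cuffdiff and mm10/GRCm38, whereas the study's methods name TopHat2, HT-seq, DESeq and mm9. All 50 loci overlap their RefSeq gene on GRCm38. The deposited counts are raw reads per gene, and strand and multi-mapping are not given in the sources used here. The deposited FPKM equal count over gene length and summed counts. That length exceeded the longest GENCODE M1 transcript for 41 of the 50 genes and the gene's own span for Fen1, so FPKM of different genes are compared with caution.

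Log2 ratios used a pseudocount of 1 FPKM and genes with at least 1 FPKM in a library. No count model was fitted, since 1 library per condition leaves no replicate spread. Intervals are 95% Clopper-Pearson intervals of a gene's reads. The trend was a cubic polynomial in log2 transcript length and in GC content. Any of the 50 genes could be named; of other pathway genes up to 10, by size of log2 ratio. Alternatives were another pseudocount, filters, CPM, centring on the median, TMM factors from edgeR 4.0.16 (R 4.3.3), a fold of 2, trend removal and leaving out overlapping genes. Genes and lists were chosen with earlier results of these data known. Python 3.11.15, numpy 2.4.6, pandas 2.3.3, scipy 1.17.1 and matplotlib 3.10.9 were used. Intervals were tested on simulated counts with counting error alone and almost no pseudocount, so the test cannot show how they do with other spread. Trend removal was tested on a straight trend with the length behind the FPKM, not on transcript length and GC content. The study's protein data were not used here. A further erythroid marker is not reported here.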

Additional observations from a re-analysis of the deposited data

How the results depend on the processing

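The median log2 ratio of the 50 genes stayed below 0 under every alternative run, from -0.23 with at least 5 FPKM required, which left 34 genes, to -0.15 with the median of all genes set to 0. The number at least 1.5-fold higher stayed at 0. The number at least 1.5-fold lower was 2, and 1 with a fold of 2, with the trend with the length behind the FPKM removed, with the trend with GENCODE M1 transcript length and GC content removed (chosen after seeing the data), or without genes that overlap another gene with reads, which leaves out Fen1. Among all genes kept, 374 were at least 1.5-fold higher and 316 lower. A pseudocount of 0.1 gave 665 and 571, a minimum of 5 FPKM 218 and 209, a fold of 2 gave 85 and 46, and removal of the M1 trend 185 and 105. CPM gave 609 higher, and removal of the trend with the length behind the FPKM gave 185 lower. Median centring changed the counts to 434 higher and 264 lower. With the M1 trend removed, Ticrr (-0.056) and Pole (-0.030) changed sign and left their counting interval. Both have transcripts of more than 6000 bases, a class in which all genes had a median log2 ratio of 0.37. A further 19 of the genes left their counting interval, 18 with the same sign and Tk1 (0.18) with the other. No paired analysis was possible because each condition has 1 library, and no replicate could be left out. Counting error weighs most on the genes with the fewest reads, Orc1 (121 and 93) and Gins1 (176 and 95).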
